A study of Mus musculus with 56 samples.

Results

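The plasminogen activators Plau and Plat, the urokinase receptor Plaur and the serpins Serpine2, Serpinb2 and Serpinb5 were followed across a series of mouse mammary tumor cell lines. These 6 genes were chosen by name, with earlier results of these data known, so shares of calls among them are descriptions. They were looked up by Entrez identifier among the 20314 genes of the deposited table, and all 6 were found. The RNA came from lines that had been established from mammary tumors of FVB/N mice carrying PyMT, the polyoma middle T oncogene, which the MMTV promoter drives in mammary epithelium. The lines differed in their β-catenin alleles and fell into 7 genotypes. Cells labelled fl/fl kept floxed β-catenin alleles. Cells labelled D164A/fl, ΔC/fl and dm/fl carried the named allele beside a floxed one, and in D164A/-, ΔC/- and dm/- cells Cre recombinase had removed the floxed allele. D164A is a point mutation in the N-terminal part of β-catenin after which the cofactors Bcl9 and Bcl9l no longer bind. The deletion had been made in culture with an adenovirus carrying Cre and GFP followed by sorting of GFP-positive cells, and fibroblasts had been reduced by differential trypsinization when the lines were set up. What the ΔC and dm alleles change is not given in the sources used here. Each genotype was grown in 4 conditions with 2 biological replicates in each, which gave 28 conditions and 56 samples. In the Wnt3a experiment, cells were left untreated or received Wnt3a at 100 ng/ml for 3 days. In the TGFβ experiment, the dose was 2 ng/ml and the treatment lasted 4 days. Each cytokine thus had its own untreated cells.

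Plasminogen activators are serine proteases that cut plasminogen into plasmin, a protease that degrades fibrin and parts of the extracellular matrix. Plau encodes urokinase (uPA), which acts at the cell surface when bound to its receptor uPAR, the product of Plaur, and Plat encodes tissue-type plasminogen activator (tPA). Serpins are inhibitors that trap a protease in an irreversible complex. Serpinb2 (PAI-2) inhibits both activators, and Serpine2 (protease nexin-1) inhibits urokinase, thrombin and other proteases. Serpinb5 (maspin) is a clade B serpin of mammary epithelium that does not inhibit proteases in the classical way. Urokinase and its receptor are well known TGFβ-responsive genes of epithelial cells.

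Sequences before a transcript start of 4 members are shown as context for the transcript levels compared here. A match to a motif in them is a description of the letters, not evidence of a bound site. The 250 bases before a RefSeq transcript start in GRCm38.p6 are written on the strand of the gene for Plaur (chr7:24462233-24462482, plus strand), Serpinb2 (chr1:107511173-107511422, plus strand), Serpinb5 (chr1:106860925-106861174, plus strand) and Serpine2 (chr1:79858666-79858915, minus strand). Capitals mark matches to 4 motifs that were searched on both strands. The first was the AP-1 motif, spelled TGANTCA. For SMAD proteins the palindrome searched was GTCTAGAC. The motif for TCF and LEF factors was spelled CTTTGAT in this search. The TATA box was taken to be TATAAA.
Plaur: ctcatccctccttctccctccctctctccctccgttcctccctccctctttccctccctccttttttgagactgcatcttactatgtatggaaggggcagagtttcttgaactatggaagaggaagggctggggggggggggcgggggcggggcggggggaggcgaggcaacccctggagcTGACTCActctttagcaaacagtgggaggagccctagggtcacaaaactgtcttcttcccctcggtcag
Serpinb2: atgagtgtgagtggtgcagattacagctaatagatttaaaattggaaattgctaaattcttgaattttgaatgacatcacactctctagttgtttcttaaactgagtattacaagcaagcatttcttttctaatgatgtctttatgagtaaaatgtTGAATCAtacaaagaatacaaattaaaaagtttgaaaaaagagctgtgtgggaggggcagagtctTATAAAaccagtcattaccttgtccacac
Serpinb5: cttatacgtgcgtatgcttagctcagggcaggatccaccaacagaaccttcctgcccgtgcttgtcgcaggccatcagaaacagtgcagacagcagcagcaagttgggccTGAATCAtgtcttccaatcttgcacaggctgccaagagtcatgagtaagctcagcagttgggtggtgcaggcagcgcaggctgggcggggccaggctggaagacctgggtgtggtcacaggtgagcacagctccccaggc
Serpine2: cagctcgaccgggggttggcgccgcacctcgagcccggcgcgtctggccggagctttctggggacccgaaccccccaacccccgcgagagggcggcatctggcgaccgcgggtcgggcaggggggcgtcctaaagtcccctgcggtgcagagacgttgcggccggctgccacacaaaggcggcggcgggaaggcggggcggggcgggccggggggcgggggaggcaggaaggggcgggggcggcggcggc
The Serpinb5 and Serpine2 windows end at the edge of the gene. The Plaur and Serpinb2 windows lie inside the gene spans given below, before a transcript start within the gene. For Serpinb2 the set held a second window (chr1:107511260-107511509), which overlaps the one shown. The AP-1 letters stood 69 to 63 bases before the start in Plaur, 94 to 88 bases before it in Serpinb2 and 140 to 134 bases before it in Serpinb5. Serpinb2 also held TATAAA 29 to 24 bases before the start. Counted from the start of its second window, the same AP-1 letters stood 181 to 175 bases and TATAAA 116 to 111 bases before it. Of 32851 windows of the same length in the RefSeq set, 6.75% held TGANTCA and 12.4% held TATAAA. Matches to GTCTAGAC (0.167% of windows) and CTTTGAT (3.21% of windows) were in none of the 4 windows shown, and no match in them overlapped another. The base composition ranged from 32.4% G and C in Serpinb2 to 78.8% in Serpine2, with 58.8% in Serpinb5 and 59.6% in Plaur, against a median of 52.4% over the set. In GRCm38 the genes span chr1:107500892-107525600 for Serpinb2, chr1:106861175-106883348 for Serpinb5, chr1:79794317-79858665 for Serpine2, chr7:24460937-24475970 for Plaur, chr14:20836662-20843388 for Plau and chr8:22757722-22782848 for Plat.

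Levels are given as CPM, the reads of a gene scaled to 1 M reads of the effective library size of the sample. The genes of a sample held 22.4 to 33.7 M reads (median 26.8 M), and 3 reads, taken as the smallest detectable amount, corresponded to 0.0917 to 0.146 CPM. This limit covers counting error only. Ctnnb1, which encodes β-catenin, was between 531 and 3188 CPM in all 56 samples. These reads do not separate floxed, mutant and recombined transcripts, so the level does not check the genotype labels. The epithelial markers Epcam, Cdh1, Krt8, Krt18 and Krt14 were above 1 CPM in 56 of 56 samples. Krt5, also in this list, was above 1 CPM in only 27 samples (median 0.901 CPM, at most 974.3 CPM). Among the fibroblast markers, Lum and Thy1 did not exceed 0.08 and 0.116 CPM, while Pdgfra was above 1 CPM in all 56 samples. Of the macrophage and leukocyte markers, Ptprc and Adgre1 did not exceed 0.208 and 0.042 CPM, whereas Csf1r reached 529.7 CPM. Cd68 was above 1 CPM in all 56 samples and reached 79.4 CPM. The 2 replicates differed more in the Wnt3a experiment, where the untreated dm/fl pair and the dm/- pair with Wnt3a stood apart from the rest. In these 2 pairs, 7155 and 5640 genes differed by more than 2-fold between replicates, against 89 to 802 genes in the pairs of the TGFβ experiment. The labels call the replicates biological and do not give the number of lines per genotype, so that a genotype and a cell line cannot be told apart, and p-values measure the spread between these samples.

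The first question was how the members responded to TGFβ in each genotype. Plau rose in 5 of 7 genotypes, and its fitted change was above 0 in all 7. No other member was called in the same direction in more than 1 genotype. Plat rose in fl/fl cells and fell in dm/fl cells, Serpine2 fell in dm/fl cells and rose in dm/- cells, and Serpinb2 fell in D164A/fl cells. Differences were tested with limma on log2(CPM + 1) over the 13754 genes that reached 1 CPM in 2 or more samples. A gene was called where its adjusted p did not exceed 0.05 and its log2 fold change was 1 or more in either direction. By this rule 10 of 42 tests of the 6 members in the 7 genotypes were called, or 23.8%, with 7 up and 3 down. Over all genes the same rule called 6.35% of the tests, 3.11% up and 3.24% down. Because the members were chosen with earlier results of these data known, the 2 shares are only described. By genotype the shares of all genes were 6.25% in fl/fl, 3.38% in D164A/fl, 4.06% in D164A/-, 7.74% in ΔC/fl, 6.55% in ΔC/-, 10.3% in dm/fl and 6.12% in dm/- cells. The median log2 fold change over the 42 member tests was 0.48. For all genes the median over genotypes of the median log2 fold change, a different measure, was 0.00. Plau accounted for 5 of the 10 calls.

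**Figure D1:**
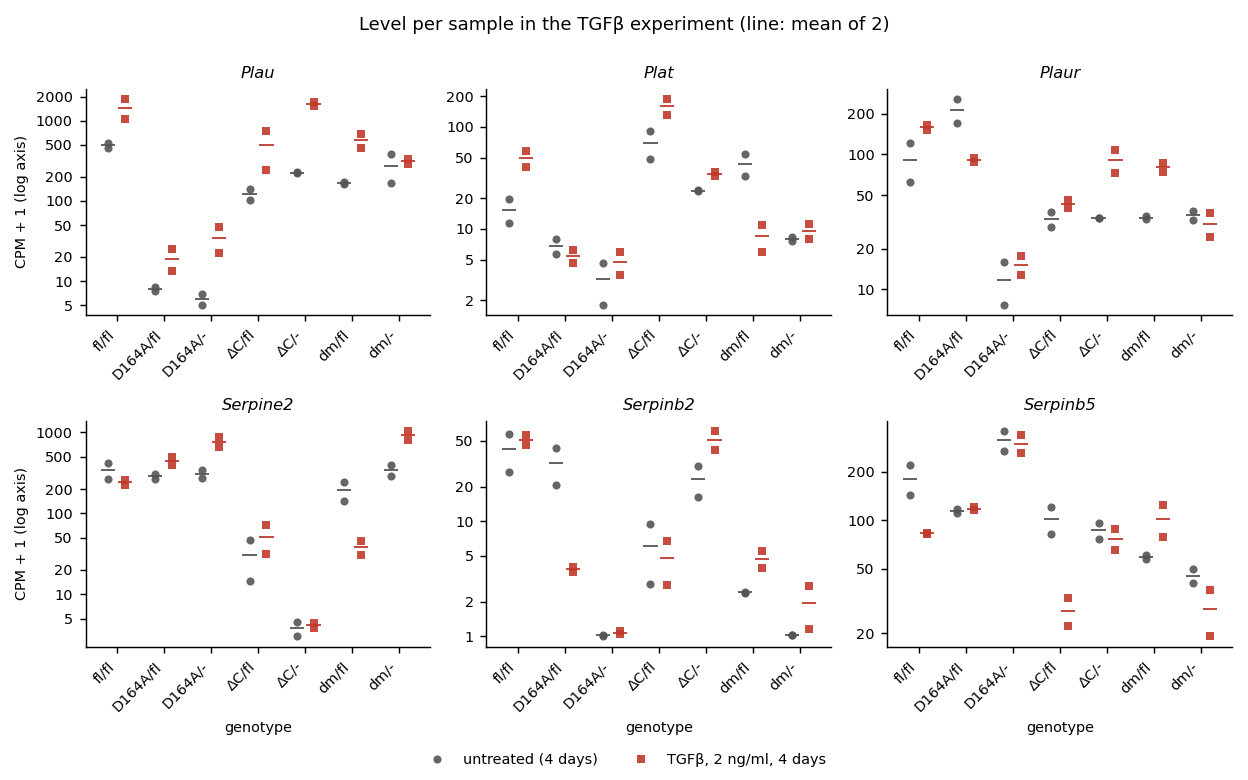
Level of each member in every sample of the TGFβ experiment, as CPM + 1 on a log axis, by genotype. Gray circles are untreated and red squares TGFβ-treated replicates, and lines mark the mean of 2. Plau samples with TGFβ lie above the untreated ones in 6 of 7 genotypes, with dm/- as the exception.

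Plau, the urokinase gene, was called in more genotypes than any other member. Untreated fl/fl replicates were at 533 and 453 CPM and TGFβ-treated ones at 1859 and 1060.2 CPM. The mean was 2.96-fold higher with TGFβ (log2 fold change 1.51 ± 0.48, adjusted p = 0.0486; after a log2 value, ± gives the standard error). In ΔC/- cells Plau went from 221 and 229 CPM to 1546 and 1688 CPM, 7.19-fold higher (2.84 ± 0.48, adjusted p = 9.91e-05). The treated replicates lay far above the untreated ones in both genotypes, and ΔC/- cells, which started lower, reached the same range as fl/fl cells. ΔC/fl cells rose from 103 and 141 CPM to 747 and 242 CPM (1.81 ± 0.48, adjusted p = 0.0103). In dm/fl cells the values were 163 and 172 CPM without and 689 and 463 CPM with TGFβ (1.75 ± 0.48, adjusted p = 0.0107). The treated ΔC/fl replicates were the widest pair, yet neither overlapped the untreated cells. D164A/- cells started from only 4.09 and 5.87 CPM and rose to 21.2 and 45.9 CPM, 6.74-fold higher (2.45 ± 0.48, adjusted p = 0.000779). D164A/fl cells had 7.54 and 6.43 CPM untreated and 12.3 and 23.9 CPM with TGFβ, a difference that did not pass the test (1.19 ± 0.48, adjusted p = 0.198) although the replicates did not overlap. dm/- replicates overlapped, with 164.3 and 381 CPM untreated and 288 and 335 CPM treated (0.31 ± 0.48, adjusted p = 0.912, 95% interval -0.67 to 1.29). A fitted change above 0 in all 7 genotypes was found for 7.86% of the genes tested, and a call upward in at least 5 genotypes for 0.909%.

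The Plau calls were not equally firm. In ΔC/- cells the call was kept without any one of the 4 libraries (log2 fold change 2.78 to 2.90). In fl/fl cells it was lost whichever of the 4 libraries was left out (1.11 to 1.92, adjusted p = 0.0541 to 0.518), and edgeR on the recovered reads did not call it. In dm/fl cells it was kept only without TGFβ replicate 2 and lost without each of the other 3 libraries (adjusted p = 0.0542 to 0.149). In ΔC/fl cells it was lost without untreated replicate 1 (1.59, adjusted p = 0.124) and without TGFβ replicate 1 (1.00, adjusted p = 0.473), and in D164A/- cells without TGFβ replicate 2 (1.91, adjusted p = 0.0664).

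Plat, the tissue-type activator, moved in opposite directions in different genotypes. In fl/fl cells it was at 10.5 and 18.5 CPM untreated and 39.9 and 57.6 CPM with TGFβ, 3.37-fold higher (1.71 ± 0.49, adjusted p = 0.0226). In dm/fl cells it was at 53.7 and 31.8 CPM untreated and 9.97 and 4.9 CPM with TGFβ, 5.75-fold lower (-2.40 ± 0.49, adjusted p = 0.00053). Neither pair of groups overlapped. ΔC/fl cells had the highest Plat levels of the series, 89.8 and 47.5 CPM untreated and 186 and 129 CPM treated, with a difference that did not pass the test (1.23 ± 0.49, adjusted p = 0.122). The groups did not overlap in ΔC/- cells either, with 23.1 and 22.3 CPM against 35.1 and 31.8 CPM (0.54 ± 0.49, adjusted p = 0.684). D164A/fl, D164A/- and dm/- cells stayed at or below 10.1 CPM in both conditions and their replicates overlapped, with log2 fold changes of -0.33, 0.66 and 0.25. The fall in dm/fl cells was called without any one library (-2.84 to -1.95). The rise in fl/fl cells was kept only without untreated replicate 2, and it was lost without untreated replicate 1 (1.33, adjusted p = 0.324), TGFβ replicate 1 (1.97, adjusted p = 0.0517) or TGFβ replicate 2 (1.45, adjusted p = 0.267).

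Plaur, which encodes the receptor that holds urokinase at the cell surface, was called in 0 of 7 genotypes by limma and in 0 by edgeR, while 3 of its 7 tests had an unadjusted p under 0.05. These 3 tests, in ΔC/-, dm/fl and D164A/fl cells, were called by limma once the trend of the changes with GC content was removed (Plaur adjusted p = 0.0198 to 0.025). The largest fitted rise was in ΔC/- cells, from 32.9 and 32.8 CPM to 72.4 and 107 CPM (1.40 ± 0.54, adjusted p = 0.117). In dm/fl cells it was at 32.3 and 33.9 CPM untreated and 86.2 and 72.9 CPM with TGFβ (1.24 ± 0.54, adjusted p = 0.168). D164A/fl cells had values on the other side, with 256 and 169 CPM untreated and 86.5 and 92.8 CPM treated (-1.21 ± 0.54, adjusted p = 0.279). In these 3 genotypes the treated and untreated replicates did not overlap, and the same held for fl/fl and ΔC/fl cells. There the values were 119.8 and 61.5 CPM and 152 and 165 CPM in fl/fl cells and 27.9 and 36.6 CPM and 44.7 and 39 CPM in ΔC/fl cells. Untreated and treated replicates overlapped in D164A/- cells, which had the lowest levels (6.72 to 16.6 CPM), and in dm/- cells (23.6 to 37.3 CPM).

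Among the inhibitors, Serpine2 was called in both directions. dm/fl replicates fell from 240.2 and 143 CPM to 44.4 and 29.5 CPM, 5.19-fold lower (-2.33 ± 0.44, adjusted p = 0.000198). Replicates of dm/- cells, the same allele without the floxed one, rose from 395 and 286 CPM to 1044 and 817 CPM, 2.74-fold higher (1.46 ± 0.44, adjusted p = 0.0333). Within the TGFβ experiment, the treated dm/- pair had the highest mean of Serpine2 and the treated dm/fl pair the lowest outside the ΔC lines. D164A/- cells were at 275 and 344 CPM untreated and 889 and 653 CPM with TGFβ, without overlap, but the difference did not pass the test (1.31 ± 0.44, adjusted p = 0.0894). D164A/fl values were 266 and 307 CPM and 391 and 499.9 CPM (0.63 ± 0.44, adjusted p = 0.622), and fl/fl values were 416 and 262 CPM and 260.1 and 226 CPM (-0.45 ± 0.44, adjusted p = 0.982). ΔC/fl replicates overlapped between 13.6 and 70.7 CPM, and ΔC/- replicates between 2.01 and 3.57 CPM. The fall in dm/fl cells was called without any one library (-2.70 to -1.95), whereas the rise in dm/- cells was lost whichever of its 4 libraries was left out (1.23 to 1.69, adjusted p = 0.0739 to 0.312) and was not called by edgeR.

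Markers of other cell types also had different levels in untreated and treated dm/fl cells, where Plat and Serpine2 fell. The summed level of 6 fibroblast markers was 312 to 533 CPM in the untreated and 100.2 to 128 CPM in the treated dm/fl replicates, and 6.97 to 7.96 CPM and 36.7 to 126 CPM in dm/- cells. Over all genotypes this sum was 5.58 to 743 CPM in untreated and 25.7 to 365 CPM in treated cells, and Thy1 and Lum were at or near 0 in every sample. Dcn did not exceed 3.49 CPM in any sample, so the fibroblast sum in dm/fl cells came mainly from Pdgfra, Pdgfrb and Col1a1. The sum of 4 endothelial markers was 0.186 to 0.287 CPM without and 34.1 to 35.2 CPM with TGFβ in dm/fl cells. Among them Cdh5 reached 35.0 CPM, while Pecam1 did not exceed 1.44 CPM and Kdr and Tek 0.297 CPM in any sample. The treated sum thus came mainly from Cdh5. The sum of 5 leukocyte markers was 340.2 to 436 CPM and 427 to 449 CPM in dm/fl cells. It came mainly from Csf1r, since Cd68 did not exceed 79.4 CPM and Ptprc, Adgre1 and Lyz2 did not exceed 3.96 CPM in any sample. The sum of 6 epithelial markers was 1436 to 1991 CPM and 1991 to 2337 CPM in dm/fl cells. The part of these markers in the results was not tested. In bulk samples, fewer cells of a type and less RNA per cell cannot be told apart.

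Serpinb2 (PAI-2) had the lowest levels among the members in several genotypes. In D164A/fl cells it fell from 41.9 and 19.7 CPM to 2.6 and 3.03 CPM, 10.9-fold lower (-2.97 ± 0.88, adjusted p = 0.044). This call was lost whichever of the 4 libraries was left out (-3.50 to -2.44, adjusted p = 0.0752 to 0.522), and edgeR did not make it. ΔC/- cells had 15.2 and 29.5 CPM untreated and 59.9 and 40.5 CPM with TGFβ (1.18 ± 0.88, adjusted p = 0.56). fl/fl replicates overlapped, at 25.8 and 56.7 CPM and 45.3 and 55.2 CPM. In dm/fl cells the levels were 1.4 and 1.43 CPM and 4.52 and 2.96 CPM, and ΔC/fl replicates overlapped between 1.80 and 8.48 CPM. D164A/- cells stayed at or below 0.11 CPM in all 4 samples, at or under the amount of 3 reads. dm/- cells were at 0.0306 and 0.0354 CPM untreated, which is 1 read each, and at 0.151 and 1.72 CPM with TGFβ.

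Serpinb5 (maspin) was called in 0 of 7 genotypes by limma, with 1 test at an unadjusted p under 0.05. That test was ΔC/fl, where it was at 81.2 and 121 CPM untreated and 21.2 and 31.8 CPM with TGFβ (-1.89 ± 0.63, adjusted p = 0.0529), and edgeR called it. fl/fl cells had 143 and 219 CPM and 81.8 and 82.3 CPM (-1.10 ± 0.63, adjusted p = 0.517). The treated replicates lay below the untreated ones in both genotypes and also in dm/- cells, at 39.8 and 49.1 CPM and 36.2 and 18.1 CPM. In dm/fl cells the order was the other way, with 56.8 and 60.5 CPM and 78.5 and 123 CPM (0.74 ± 0.63, adjusted p = 0.67). D164A/fl, D164A/- and ΔC/- replicates overlapped, with log2 fold changes of 0.04, -0.06 and -0.18.

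**Figure D2:**
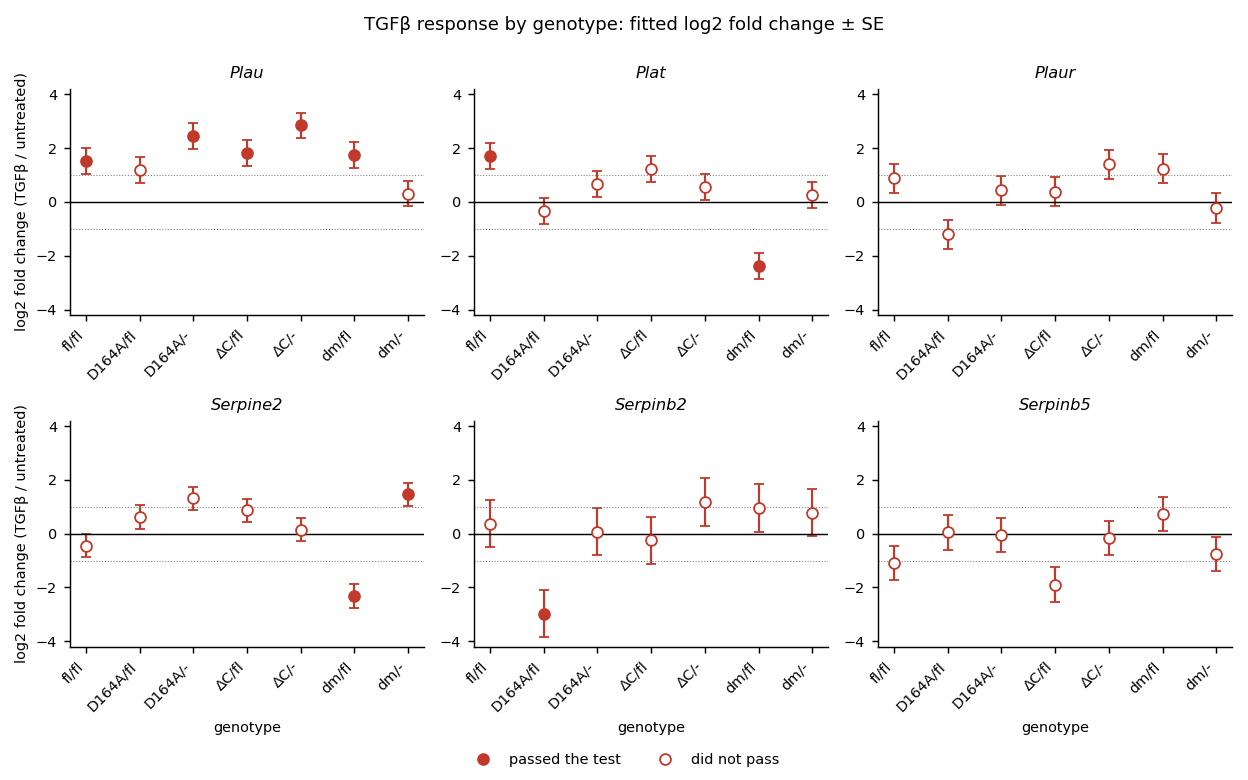
Fitted log2 fold change of each member after TGFβ, by genotype, with its standard error. Filled points were called, with dotted lines at a log2 fold change of 1 in either direction, and open points were not. Plau is filled and positive in 5 genotypes, and Plat and Serpine2 have filled points on both sides of 0.

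Whether the responses differed between genotypes was tested as an interaction for 9 pairs of genotypes, each mutant genotype against fl/fl and each deleted line against its floxed counterpart. Of 54 tests of the members 3 were called, or 5.56%, against 3.49% over all genes. Over all genes the share was 4.04% for dm/fl against fl/fl and 7.31% for dm/- against dm/fl. The Plat response was lower in dm/fl than in fl/fl cells (difference of log2 fold changes -4.11 ± 0.69, adjusted p = 0.000133), and it was higher in dm/- than in dm/fl cells (2.64 ± 0.69, adjusted p = 0.0116). The Serpine2 response was higher in dm/- than in dm/fl cells (3.78 ± 0.62, adjusted p = 6.03e-05). All 3 called differences thus involved dm/fl cells. The Serpine2 difference was called without any one of the 8 libraries (3.41 to 4.16), as was the Plat difference between dm/fl and fl/fl (-4.56 to -3.66). The Plat difference between dm/- and dm/fl was lost without untreated replicate 1 of dm/fl (2.27, adjusted p = 0.101), TGFβ replicate 2 of dm/fl (2.19, adjusted p = 0.103), TGFβ replicate 1 of dm/- (2.41, adjusted p = 0.0681) or untreated replicate 2 of dm/- (2.57, adjusted p = 0.0511). For Plau, none of the 9 differences was called by limma or edgeR and 1 had an unadjusted p under 0.05, so the absent call in dm/- cells did not amount to a shown difference from dm/fl (-1.44 ± 0.68, adjusted p = 0.247) or from fl/fl (-1.20 ± 0.68, adjusted p = 0.66). Plaur, Serpinb2 and Serpinb5 also had no called difference by either tool, with 2, 2 and 1 of 9 tests at an unadjusted p under 0.05. Contrasts that share a genotype share its samples.

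More tests were called between the untreated levels of the genotypes than between their responses. With the same 9 pairs, 23 of 54 tests of the members were called in the untreated cells of the Wnt3a experiment (42.6%, against 16.1% over all genes) and 20 of 54 in those of the TGFβ experiment (37.0%, against 16.3%). The same call was made in both experiments in 15 of 54 tests, or 27.8%, against 8.95% over all genes. By member these were 4 of 9 tests for Plau, 4 for Serpinb2, 3 for Plat, 3 for Serpine2, 1 for Serpinb5 and 0 for Plaur.

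**Figure D3:**
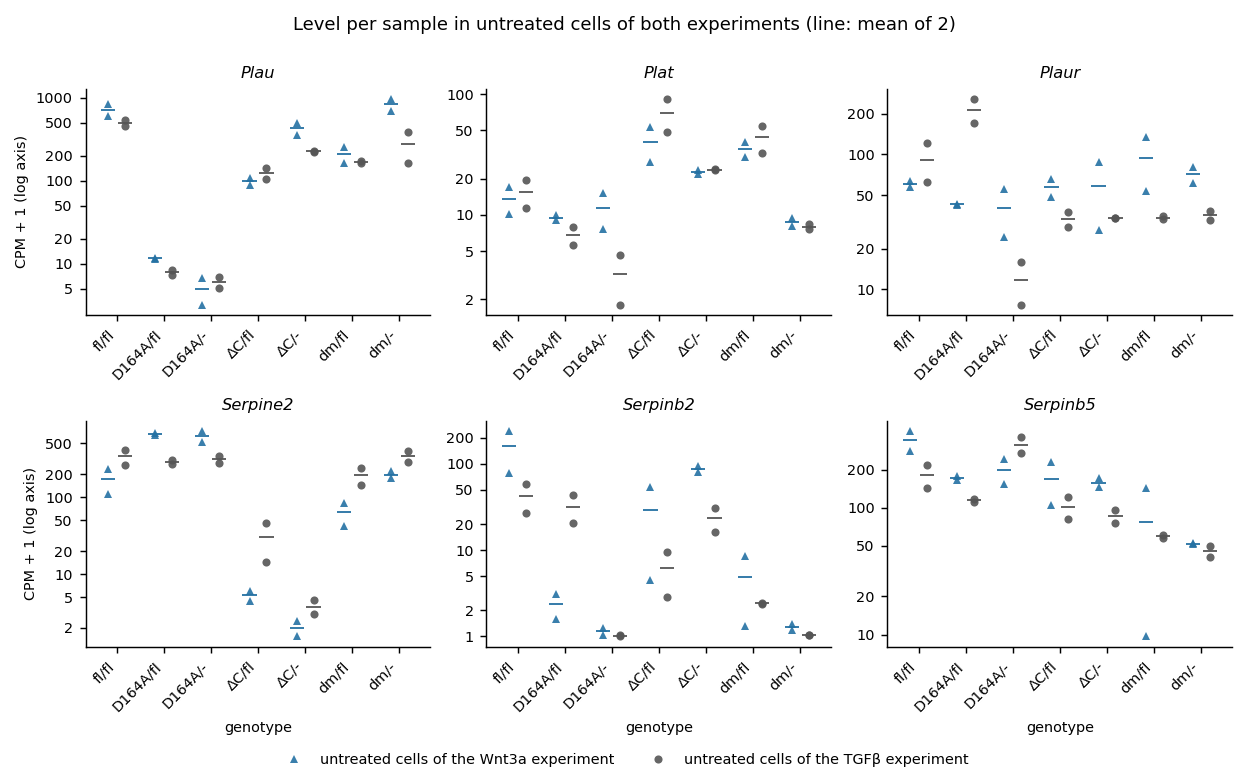
Level of each member in every untreated sample, as CPM + 1 on a log axis, by genotype. Blue triangles are cells of the Wnt3a experiment, gray circles cells of the TGFβ experiment, and lines mark the mean of 2. Plau is lowest in both D164A genotypes and Serpine2 in both ΔC genotypes, in either experiment.

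Plau was far lower in both D164A genotypes than in the others. In the untreated cells of the TGFβ experiment it was at 493 ± 56.8 CPM in fl/fl cells (mean ± SD, n = 2), at 6.98 ± 0.779 CPM in D164A/fl cells and at 4.98 ± 1.25 CPM in D164A/- cells. The log2 differences from fl/fl were -5.95 ± 0.48, adjusted p = 1.27e-11 and -6.38 ± 0.48, adjusted p = 1.26e-12. In the Wnt3a experiment the corresponding levels were 718 ± 163.7, 10.7 ± 0.102 and 4.04 ± 2.54 CPM. The D164A libraries lay far below those of every other genotype in both experiments, and D164A/- did not differ from D164A/fl by the test in either (-0.43 ± 0.48, adjusted p = 0.63 and -1.31 ± 0.48, adjusted p = 0.172). Plau was also lower than in fl/fl cells in ΔC/fl (-2.02 ± 0.48, adjusted p = 0.00191 in the TGFβ experiment and -2.85 ± 0.48, adjusted p = 3.39e-05 in the Wnt3a experiment). For dm/fl the differences were -1.55 ± 0.48, adjusted p = 0.0173 and -1.79 ± 0.48, adjusted p = 0.0046. Over all 56 samples Plau ranged from 2.24 to 1859 CPM.

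Serpine2 was low in the ΔC lines instead. Untreated cells of the TGFβ experiment had 339 ± 109 CPM in fl/fl, 29.7 ± 22.8 CPM in ΔC/fl and 2.79 ± 1.1 CPM in ΔC/-. ΔC/- differed from fl/fl by -6.48 ± 0.44, adjusted p = 2.08e-13 and from ΔC/fl by -2.82 ± 0.44, adjusted p = 1.13e-05. In the Wnt3a experiment the levels were 172 ± 87.6, 4.3 ± 1.08 and 1 ± 0.632 CPM in the same order. The ΔC lines were below all others in both experiments, and ΔC/- below ΔC/fl. In the D164A lines the experiments gave different pictures. Serpine2 was higher than in fl/fl in the Wnt3a experiment (2.04 ± 0.44, adjusted p = 0.000569 for D164A/fl and 1.94 ± 0.44, adjusted p = 0.00101 for D164A/-) and overlapped fl/fl in the TGFβ experiment (-0.21 and -0.10). The untreated Serpine2 replicates of the 2 experiments did not overlap in any of the 7 genotypes, and the mean was higher in the TGFβ experiment in 5 of them.

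Serpinb2 was highest in fl/fl cells, at 41.3 ± 21.8 CPM in the TGFβ experiment and 158 ± 114 CPM in the Wnt3a experiment. It was at 0 and 0.0381 CPM in D164A/- and 0.0306 and 0.0354 CPM in dm/- cells of the TGFβ experiment, at most 1 read per library, and at 0.0365 and 0.253 CPM and 0.188 and 0.395 CPM in those of the Wnt3a experiment. The tests against fl/fl were called for D164A/-, ΔC/fl, dm/fl and dm/- in both experiments, although edgeR did not call ΔC/fl in the Wnt3a experiment. ΔC/- cells overlapped fl/fl cells in both. D164A/fl cells were at 41.9 and 19.7 CPM in the TGFβ experiment and at 2.13 and 0.577 CPM in the Wnt3a experiment, so that the same genotype was near fl/fl in one and far below it in the other. Plaur showed the same kind of shift, with D164A/fl at 256 and 169 CPM in the TGFβ and 42.3 and 41.6 CPM in the Wnt3a experiment. In the TGFβ experiment Plaur was lower in D164A/- than in D164A/fl cells (-4.24 ± 0.54, adjusted p = 3.15e-07), and in the Wnt3a experiment the replicates of these 2 genotypes overlapped.

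Plat was higher than in fl/fl cells in ΔC/fl and dm/fl cells of both experiments. In the TGFβ experiment the means were 14.5 ± 5.65 CPM in fl/fl, 68.6 ± 30 CPM in ΔC/fl (2.15 ± 0.49, adjusted p = 0.00117) and 42.7 ± 15.5 CPM in dm/fl (1.503 ± 0.49, adjusted p = 0.0235). It was lower in dm/- than in dm/fl cells in both experiments (-2.41 ± 0.49, adjusted p = 0.000295 and -1.98 ± 0.49, adjusted p = 0.00286). The sum of 6 fibroblast markers was also highest in untreated ΔC/fl and dm/fl cells. There it came mainly from Pdgfra, Pdgfrb and Col1a1, since Dcn, Thy1 and Lum did not exceed 3.49 CPM in any sample. In the untreated TGFβ experiment the sum was 310.2 to 743 CPM in ΔC/fl and 312 to 533 CPM in dm/fl, against 5.58 to 10.7 CPM in fl/fl and 6.97 to 7.96 CPM in dm/- cells. In the Wnt3a experiment it was 105 to 423 CPM and 120.1 to 213 CPM in the former pair, against 7.22 to 13.0 CPM in fl/fl and 6.41 to 10.9 CPM in dm/- cells. The part of these markers in the Plat differences was not tested. Serpinb5 was lowest in the dm lines. In dm/- cells it was at 44.4 ± 6.59 CPM in the TGFβ experiment against 181 ± 53.7 CPM in fl/fl (-1.98 ± 0.63, adjusted p = 0.0248), and the difference was -2.70 ± 0.63, adjusted p = 0.00186 in the Wnt3a experiment.

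Some of these untreated calls rested on 1 library. In the TGFβ experiment, Plat in dm/fl against fl/fl was lost without replicate 1 of fl/fl (1.12, adjusted p = 0.265) or of dm/fl (1.13, adjusted p = 0.261), and in ΔC/fl without its replicate 1 (1.70, adjusted p = 0.0568). Plau in dm/fl was lost without replicate 1 of fl/fl (-1.43, adjusted p = 0.123) and without either dm/fl replicate (-1.51 and -1.59). Serpinb5 in dm/- was lost without either dm/- replicate (-1.83 and -2.12) or without replicate 2 of fl/fl (-1.67, adjusted p = 0.199). Serpinb2 in ΔC/fl was lost without its replicate 1 (-2.06) or without replicate 2 of fl/fl (-2.37). In the Wnt3a experiment, leaving out replicate 2 of fl/fl ended the calls of Plat in ΔC/fl (1.18) and dm/fl (1.03), of Plau in dm/fl (-1.55), of Serpinb2 in ΔC/fl (-2.33) and of Serpine2 in D164A/- (1.40). Without replicate 1 of dm/fl the calls of Plat (1.18) and Plau (-1.46) in dm/fl were lost, and without replicate 2 of ΔC/fl those of Plat (1.07) and Serpinb2 (-1.33) in ΔC/fl. The Serpine2 difference between ΔC/- and ΔC/fl was lost there without either ΔC/fl replicate (-1.22 and -1.63) or replicate 2 of ΔC/- (-1.10). The Plau calls of both D164A genotypes and the Serpine2 calls of both ΔC genotypes against fl/fl were kept without any one library. In the Wnt3a experiment the differences of all genes from fl/fl also followed GC content, with Spearman correlations across genes of 0.36 to 0.74, against -0.42 to 0.10 in the TGFβ experiment.

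No member was called after Wnt3a in the model over all samples. Of 42 tests 0 were called by limma and 0 by edgeR, 7 had an unadjusted p under 0.05, and over all genes 0.862% of the tests were called. With replicate number added to the limma model as a block, 4 of the 42 tests were called. The share of all genes called under that model is not given here. The fitted change of Serpine2 was below 0 in all 7 genotypes, which held for 1.33% of the genes tested. Its untreated and Wnt3a-treated values were 684 and 638 CPM and 344 and 269.8 CPM in D164A/fl cells (-1.11 ± 0.44, adjusted p = 0.185) and 528 and 728 CPM and 283 and 303 CPM in D164A/- cells (-1.08 ± 0.44, adjusted p = 0.81). The replicates did not overlap in these genotypes. They did not overlap either in ΔC/fl and dm/fl cells, and they overlapped in fl/fl, ΔC/- and dm/- cells. Plat had values on the higher side with Wnt3a in D164A/fl cells, at 8.07 and 8.97 CPM and 25.7 and 26.8 CPM (1.52 ± 0.49, adjusted p = 0.0661). In fl/fl cells Plat was at 15.9 and 9.24 CPM untreated and 22.8 and 20.1 CPM with Wnt3a (0.77 ± 0.49, adjusted p = 0.497). Serpinb2 was at 2.13 and 0.577 CPM and 15.9 and 9.54 CPM in D164A/fl cells (2.59 ± 0.88, adjusted p = 0.0907). In D164A/- cells it was at 0.0365 and 0.253 CPM untreated and at 0.645 and 0.985 CPM with Wnt3a, without overlap (0.66 ± 0.88, adjusted p = 1).

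**Figure D4:**
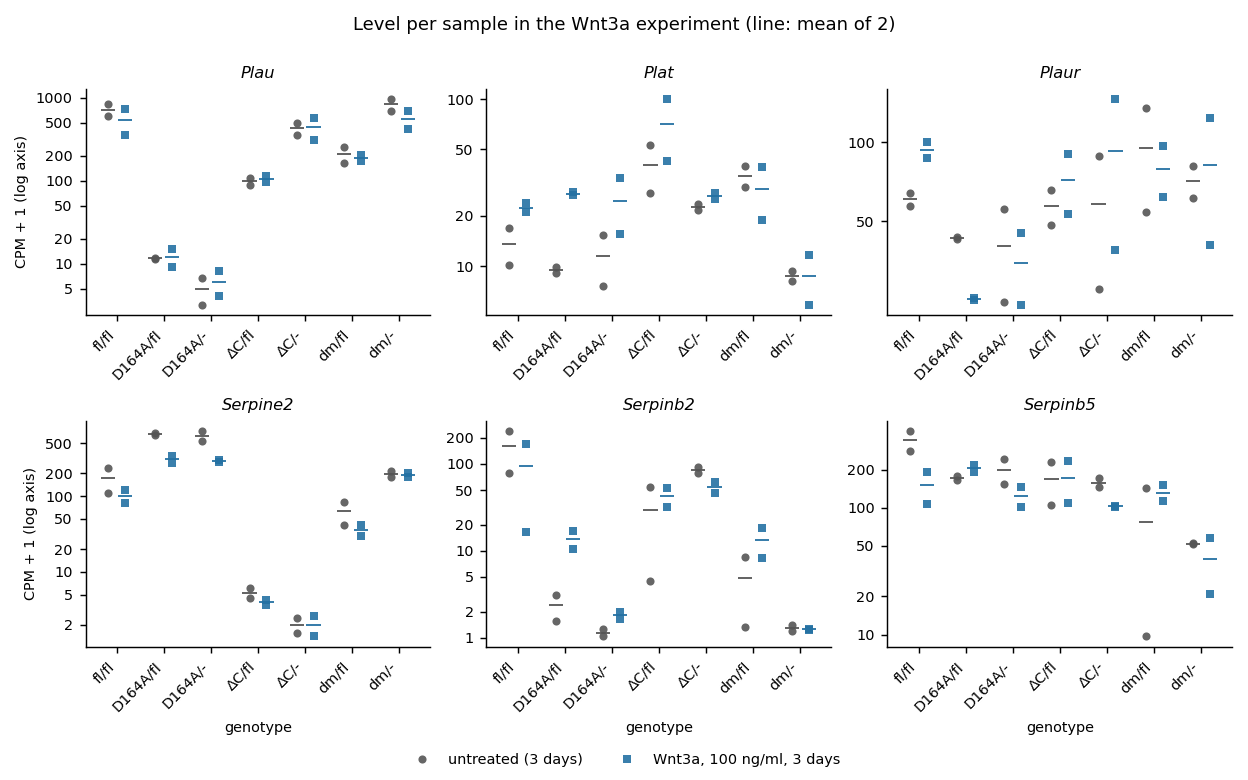
Level of each member in every sample of the Wnt3a experiment, as CPM + 1 on a log axis, by genotype. Gray circles are untreated and blue squares Wnt3a-treated replicates, and lines mark the mean of 2. Treated and untreated samples lie close together in most panels. Single replicates stand far from their partners for Serpinb2 in fl/fl, ΔC/fl and dm/fl cells and for Serpinb5 in dm/fl cells.

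The untreated dm/fl pair that stood apart also had wide values of the members. Its Serpinb5 replicates were at 8.66 and 143 CPM, against 112 and 150.1 CPM with Wnt3a, so that the groups overlapped (fitted change 1.80 ± 0.63, adjusted p = 0.226). Its Serpinb2 replicates were at 0.318 and 7.44 CPM. Without the 4 libraries of the 2 widest pairs, 0 of the 30 remaining Wnt3a tests were called. Plau showed little movement with Wnt3a, with log2 fold changes of -0.60 to 0.29 over the 7 genotypes. In several genotypes the Wnt3a changes of all genes followed the GC content of their transcripts, with a Spearman correlation across genes of 0.81 in fl/fl, 0.84 in ΔC/- and -0.82 in dm/fl cells, against -0.25 to 0.42 for TGFβ. Genes are not independent replicates, and the part of GC content in the Wnt3a values was not tested. With the trend removed, 1 of 42 tests was called (Serpinb2 in D164A/fl cells), and the share of all genes called is not given here.

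The other genes of the system were examined as a list of 16 genes, of which 15 were found in the table, 10 passed the filter and Cpb2 was not analysed here. Plg, which encodes plasminogen itself, had no reads in 55 of 56 samples and did not exceed 0.035 CPM, and Vtn, Serpina5, F12 and Klkb1 did not pass the filter either. After TGFβ, 1 of 70 tests of the list was called up and 2 down, or 4.29%, against 6.35% over all genes, and the median over genotypes of the median log2 fold change was -0.02, against 0.00 for all genes. Lrp1, the endocytic receptor that clears complexes of urokinase with inhibitors, was called in 0 of 7 genotypes, with fitted changes of -1.23 to 2.15 (2.15, adjusted p = 0.0944, in D164A/fl cells at the upper end). St14, which encodes the protease matriptase, fell in ΔC/fl cells from 203 ± 36.8 to 44 ± 3.96 CPM (-2.17, adjusted p = 0.00492) and was not called elsewhere. Ctsb, which encodes the lysosomal protease cathepsin B, had fitted changes of -0.21 to 0.43 and no call. The call upward was Mrc2, an endocytic collagen receptor, in fl/fl cells (2.14), and the other call downward was Serpinf2, the plasmin inhibitor, in dm/- cells (-1.62), both named after their values were seen with at most 5.11 CPM of Mrc2 and 3.57 CPM of Serpinf2 in any sample.

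Among the serpins outside the member set that are not of clade B, the calls upward after TGFβ came from Serpina3 genes, Serpinf1 and Serpini1. The serpin lists too were chosen with earlier results of these data known, so their shares are descriptions. Of 77 tests of 11 other serpins 21 were called up and 4 down (32.5%, against 6.35% over all genes), with a median of 0.62 by the same measure, whereas of 77 tests of 11 clade B serpins 1 was called up and 3 down (5.19%), with a median of 0.04. Serpina3f, Serpina3g, Serpina3h, Serpina3i and Serpina3n made 12 of the 21 calls upward and 1 of those downward in 35 tests (37.1%). They are related genes whose sequence similarity was not measured here, and only reads with a unique hit were counted. The 6 remaining genes made 9 and 3 in 42 tests (28.6%), and the 9 were those of Serpinf1 and Serpini1. Serpinf1, an inhibitor of angiogenesis without protease inhibition, rose in 5 genotypes. The highest levels were in ΔC/fl cells, from 30.1 ± 22.1 to 158 ± 117 CPM (2.34, adjusted p = 0.000306). Its means went from 0.0791 to 2.21 CPM in fl/fl and from 2.17 to 10.0 CPM in D164A/fl cells. In D164A/- cells they went from 0.268 to 8.01 CPM and in dm/- cells from 0 to 1.98 CPM. Serpina3h rose in 4 genotypes, for example from 16.6 ± 0.957 to 139.6 ± 6.02 CPM in ΔC/- cells (3.00, adjusted p = 1.51e-05). Serpini1 (neuroserpin), an inhibitor of tissue-type plasminogen activator, rose in 4 genotypes, from 2.11 ± 1.78 to 6.94 ± 1.22 CPM in fl/fl cells (1.48, adjusted p = 0.00109). The clade B serpins with the largest median change were Serpinb9, Serpinb9b and Serpinb9e, with medians of 0.57, 0.58 and 0.25. Of these only Serpinb9e was called, in dm/fl cells (1.95, adjusted p = 2.08e-05), and these 3 are likewise related genes. The 3 calls downward, named after their values were seen, were Serpinb8 in 2 genotypes and Serpinb1a in 1.

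Divided by transcript length, Plau was the most abundant member in 15 of 28 conditions, Serpine2 in 10, Serpinb5 in 2 and Plaur in 1. Serpinb2 was the lowest in 16 conditions, Serpine2 in 6, Plat in 5 and Plau in 1. In TGFβ-treated fl/fl cells, Plau was at 623 CPM per kb of transcript, Serpine2 at 109.9, Plaur at 105, Serpinb5 at 30.7, Serpinb2 at 25.2 and Plat at 19.3. In treated D164A/- cells the order of the first genes differed, with Serpine2 at 349, Serpinb5 at 112 and Plau at 14.3 CPM per kb.

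The members did not share one pattern. Over the 28 condition means of log2(CPM + 1), Pearson's r between pairs of members ranged from -0.581 (Serpine2 and Serpinb2) to 0.544 (Plaur and Serpinb2), with 0.415 for Plau and Plaur. The points share cell lines and experiments, so these values are descriptions. Among the 11313 genes tested that had a mean of 10 CPM or more in any condition, the profiles most like Plau were those of Il18r1 (r = 0.952), Cxcl16 (0.928) and Fbln2 (0.927). Serpine2 was most like Lrrc61 (0.973), Mgst1 (0.929) and Pacs1 (0.918), and Serpinb2 most like Tirap (0.897), Cdv3 (0.888) and Gmpr2 (0.864). For Plaur the closest were E2f4 (0.881), Polr3d (0.844) and Epha2 (0.842), for Serpinb5 Ap4s1 (0.842), Tram1 (0.83) and Cmpk1 (0.827), and for Plat Rasa3 (0.809), Sdc2 (0.801) and Camk1d (0.793).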

How the data were processed

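Mouse tumor lines of 7 β-catenin genotypes were measured by RNA sequencing in 4 conditions with 2 biological replicates. Per the labels and the methods of the study, the authors prepared stranded poly(A) libraries, mapped 75-base reads to mm10 with STAR, counted unique hits over RefSeq exons with qCount and normalized with edgeR. The deposited table holds signal values, reads scaled to 1 M of an effective library size (CPM), from which whole reads were recovered for 100% of values (tolerance 0.001). The columns do not sum to 1 M because of this scaling. Genes reaching 1 CPM in 2 or more samples (13754 of 20314) were tested on log2(CPM + 1) with limma 3.58.1 (R 4.3.3), 1 coefficient per condition over all 56 samples, with Benjamini-Hochberg adjustment per contrast. edgeR 4.0.16 (quasi-likelihood) on recovered reads, another pseudocount (0.1), no filter, median-of-ratios scaling, only the compared samples, a replicate block, removal of the GC trend, a looser threshold and leaving out each library were the alternatives. Named genes were the 6 members, list genes called in 4 or more genotypes or with the 3 largest median changes, and the 3 profiles most like each member. Other list genes named in the text were chosen after their values were seen. Members and lists were chosen with earlier results of these data known. Scripts were tested on simulated data. Intervals cover counting error or replicate spread only, and promoter windows are RefSeq sequence of GRCm38.p6. 1 gene of the pathway list is not reported here and was left out of its counts.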

Additional observations from a re-analysis of the deposited data

Results flagged for a closer look

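The TGFβ response of Plat, the tissue-type plasminogen activator gene, differed between dm/fl and fl/fl cells by -4.11 on the log2 scale in a direct test of the difference (limma, adjusted p = 0.000133). Both treated dm/fl replicates lay below both untreated ones, and both treated fl/fl replicates lay above theirs. The Plat response also differed between dm/- and dm/fl cells, by 2.64 (adjusted p = 0.0116). Leaving out 1 of the 8 libraries gave 2.19 to 3.09, and the call was lost in some of these fits. In this contrast 7.31% of all genes were called. The response of Serpine2, which encodes an inhibitor of urokinase and thrombin, differed between dm/- and dm/fl cells by 3.78 (adjusted p = 6.03e-05), with both treated replicates above the untreated ones in dm/- cells and below them in dm/fl cells. These 3 differences share the dm/fl samples.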

How the results depend on the processing

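Counts of called members moved with the way the spread was estimated. For the TGFβ response, with 10 of 42 tests called, there were 5 calls when the model held only the samples compared, 16 with the replicate block (3 of them Plaur, which had 0), 16 with the crossed pairing, 18 with the GC trend removed and the replicate block, and 17 at an unadjusted p of at most 0.05 and 1.5-fold. There were 15 TGFβ calls with the GC trend removed and 15 with only the TGFβ experiment. For Wnt3a, with 0 calls, there were 4 with the block (Plat in D164A/fl and D164A/-, Serpine2 and Serpinb2 in D164A/fl cells), 4 with the crossed pairing, 1 with the GC trend removed, 6 with that and the block, 7 at the unadjusted threshold, and 0 of 30 without the 4 libraries of the widest replicate pairs. For response differences, with 3 calls, there were 6 with only the samples compared, 13 with the block, 13 with the crossed pairing, 5 with the GC trend removed, 23 with that and the block, 11 with only the TGFβ experiment, 5 without the 4 libraries and 15 at the unadjusted threshold. For untreated cells, with 43 of 108 tests called, there were 27 with only the samples compared and 31 of 54 with only the TGFβ experiment. The untreated count was 52 with the GC trend removed, 53 with that and the block and 56 at the unadjusted threshold. In each case the cause was not tested. The shares of all genes called under these alternatives are not given here, so the counts do not compare the members with other genes. Leaving out 1 library gave 8 to 10, 0 to 2, 2 to 3 and 38 to 44 calls in the same order. edgeR called 8 of 42 TGFβ tests and 0 of 42 Wnt3a tests. No called value changed sign under any alternative run. Of 56 single calls, the model with only the samples compared lost 26, edgeR 4, the pseudocount of 0.1 lost 4, no filter 2, the GC trend 1 and the block 0, and leave-one-out fits kept 181 and lost 55 calls. Same-numbered replicates deviated together with a correlation over 0.1 in 6 of 7 genotypes for TGFβ (-0.197 to 0.66) and in 6 of 7 for Wnt3a (-0.068 to 0.932). The main model left them unpaired, and the replicate block was run as an alternative. The single-experiment, 4-library and crossed fits were chosen after seeing the data. At 22.4 M reads or more, levels of Serpinb2 in D164A/- cells of the TGFβ experiment lay at or under the 3-read limit in all 4 samples, where a change was not detectable at this depth.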
